A study of Homo sapiens with 6 samples.

Results

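The interferon regulatory factors (IRF) and the signal transducers and activators of transcription (STAT) are 2 families of transcription factors that carry interferon and cytokine signals to genes. The 9 genes described here are IRF1, IRF2, IRF3, IRF7, IRF9, STAT2, STAT3, STAT5A and STAT6, chosen by name among the 46427 genes of the deposited expression table, and each of the 9 was found on 1 row. Poly(A) RNA was sequenced with strand-specific libraries from cells of VK2/E6E7, a human vaginal epithelial line that is established and was immortalised with the papillomavirus genes E6 and E7 and labelled wild type. For 6 h, one group was exposed to 1e8 CFU/mL of HMU, which is the strain HHuMin-U of the lactic acid bacterium Lactobacillus salivarius, and the other was given PBS. Each group had 3 biological replicates according to the series' design text. All cells had grown in keratinocyte serum-free medium with epidermal growth factor, bovine pituitary extract and antibiotics. The line is a single immortalised culture, and papillomavirus E6 and E7 proteins are known to bind IRF3 and IRF1, so both groups share that background.

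Interferons and other cytokines bind receptors at the cell surface, receptor-bound JAK kinases phosphorylate STAT proteins, and STAT dimers move to the nucleus and bind GAS elements in DNA. STAT2 and IRF9 are parts of the complex ISGF3, which binds the interferon-stimulated response element (ISRE). IRF3 and IRF7 act earlier, since kinases that respond to microbial nucleic acids activate them to switch on the interferon genes. These factors are controlled largely by phosphorylation, which transcript levels do not show.

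Libraries held 64292566 to 65957584 counts. HMU replicate 2 stood apart from the other HMU libraries: over the 9867 genes that averaged 10 CPM (counts scaled by library size) or more, its root mean square log2 difference was 0.302 from HMU replicate 1 and 0.400 from HMU replicate 3. Between HMU replicates 1 and 3 it was 0.141, and between PBS libraries it was 0.0835 to 0.0858. Ribosomal protein genes held 6.17% of counts in HMU replicate 2, against 4.50% to 5.04% in the other HMU libraries and 4.43% to 4.57% in PBS. Mitochondrial genes held 6.93% to 7.15% of counts in HMU and 5.53% to 6.11% in PBS, without overlap. The squamous epithelial markers were present, with 9 of 9 above a mean of 1 TPM, a unit scaled by transcript length, and a summed level of 69089 to 76858 TPM in HMU and 84565 to 86985 TPM in PBS. These markers did not move together. KRT5, KRT14, ITGB4 and DSG3 were lower in every HMU library than in any PBS library. KRT13 was higher, at 135 to 162 TPM in HMU and 45.6 to 53.4 TPM in PBS, and KRT6A, KRT17, CDH1 and TP63 overlapped between the groups. Leukocyte markers summed to 131 to 140 TPM in HMU and 80.7 to 84.9 TPM in PBS, and only CD68 and CD14 among the 7 exceeded a mean of 1 TPM. PTPRC, which marks all leukocytes, was at 0 to 0.0233 TPM in HMU and 0 to 0.0625 TPM in PBS. Fibroblast markers summed to 30.8 to 34.5 TPM in HMU and 48.9 to 52.5 TPM in PBS, nearly all of it COL1A1, and endothelial markers stayed at 0.662 to 1.08 TPM in HMU and 0.120 to 0.195 TPM in PBS. In bulk RNA, fewer cells of a type and less RNA per cell cannot be told apart, and the part of these markers and shares in the results below was not tested.

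After HMU all 9 genes were higher and 0 were lower, by edgeR's quasi-likelihood test on counts with Benjamini-Hochberg adjustment over 17990 genes (adjusted p under 0.05). At unadjusted p under 0.05, and by DESeq2, 0 were lower as well. Without HMU replicate 2 the 9 were also called higher. Without any other single library 8 were called higher, and STAT2 lost its call. Of all genes tested, 25.0% were called higher and 25.3% lower. The largest rises were those of STAT5A, at 4.18-fold, and IRF1, at 2.82-fold, and the smallest was that of STAT2, at 1.17-fold. The median log2 fold change of the 9 was 0.86, against -0.0030 over all genes tested. All 9 passed the filter on low counts, and for each of them the 3 HMU values lay above the 3 PBS values, as they did for 30.3% of all genes tested. Levels below are TMM-normalised CPM, and comparisons of level between genes use TPM.

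**Figure D1:**
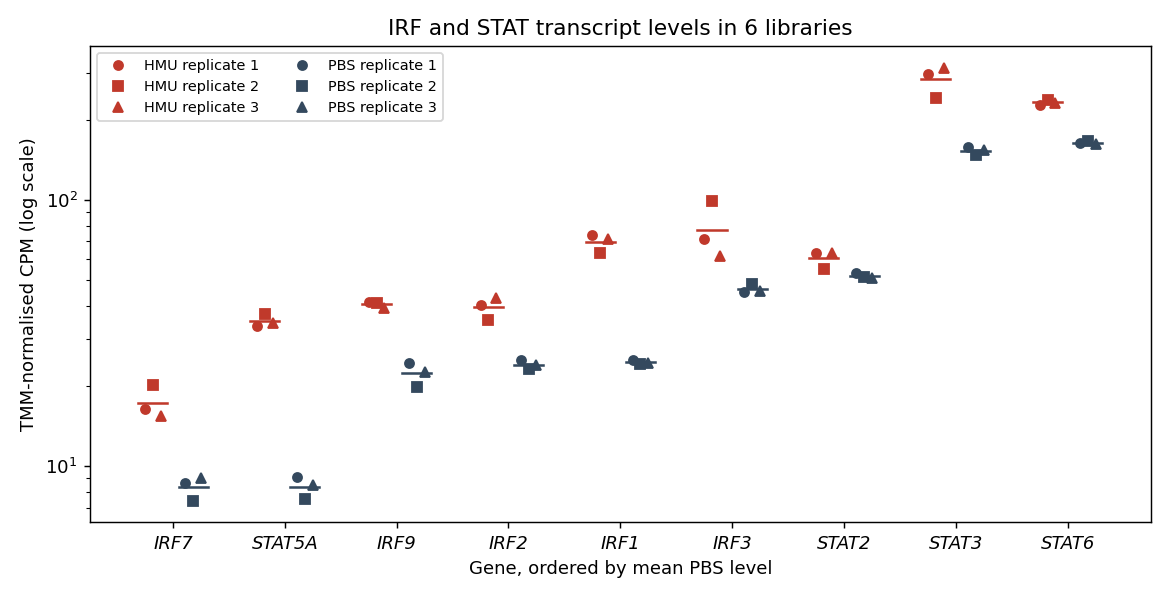
Level of each of the 9 genes in the 6 libraries, as TMM-normalised CPM on a log axis, with HMU on the left and PBS on the right of each gene; points are libraries and lines are group means. The HMU points lie above the PBS points for every gene, with the widest gaps for STAT5A and IRF1 and the narrowest for STAT2.

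The size of these rises depended on the scale, so it was read on 3 scales. TMM scaling centres the median gene near no change. When libraries were scaled by their totals alone ("library sizes only"), the median gene had a log2 fold change of -0.28, and 8 of the 9 genes were called higher, against 13.6% of all genes. On log2(TPM + 1), tested by limma-trend, the median of all genes was -0.27, and 5 of the 9 were called higher (STAT5A, IRF1, IRF7, IRF9 and STAT3), against 11.0% of all genes. STAT2 turned to a negative change on both of these scales, and IRF2 on the TPM scale.

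**Figure D2:**
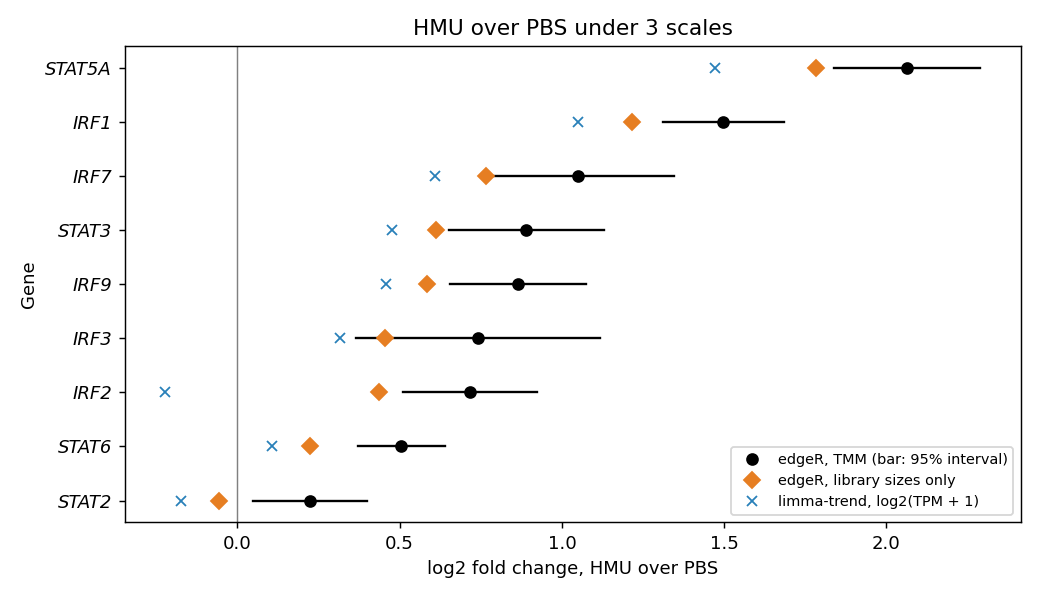
Log2 fold change of HMU over PBS for each of the 9 genes, with the edgeR estimate on the TMM scale and its 95% interval (black), the edgeR estimate with library sizes only (orange) and the limma-trend estimate on log2(TPM + 1) (blue). STAT5A and IRF1 stay above 1 on every scale, while STAT2 crosses 0 on both alternatives and IRF2 crosses it on the TPM scale.

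IRF1, the founding member of its family and an activator of antigen presentation and chemokine genes, is induced by interferon gamma and by NF-kB. Its gene (gene ID 3659) lies on the minus strand of chromosome 5 from 132481609 to 132490773 in GRCh38. It was at 73.7, 63.1 and 71.5 CPM in HMU replicates 1 to 3 and at 25.1, 24.2 and 24.5 CPM in PBS replicates 1 to 3. The PBS values sat within 1 CPM of each other, and the lowest HMU value, that of replicate 2, was still far above them. Its log2 fold change was 1.5 ± 0.081 (SE), with an edgeR adjusted p of 6.4e-06, which placed IRF1 at the 95.1 percentile of all fold changes. It was 1.22 with library sizes only and 1.05 on log2(TPM + 1), both called (edgeR adjusted p = 2.6e-05 and limma adjusted p = 0.00032). In GENCODE 29, C5orf56 overlaps IRF1 over 7094 bases and AC116366.3 over 9190 bases, both on the opposite strand. C5orf56 is an older symbol of IRF1-AS1, whose level is given below with other genes of the families. The level of AC116366.3 was not analysed here.

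The region just before the start of IRF1 is shown with that of IRF9, because these were the only ones, among the 6 members with a RefSeq promoter window (IRF1, IRF9, STAT2, STAT3, STAT5A and STAT6), that held the GAS core TTCNNNGAA. The capitals mark that core. Both sequences are read 5′ to 3′ on the gene's strand, from 150 bases before the start to the base before it, in RefSeq's GRCh38.p14 (chr5:132490774-132490923, minus strand, and chr14:24161115-24161264, plus strand).
IRF1: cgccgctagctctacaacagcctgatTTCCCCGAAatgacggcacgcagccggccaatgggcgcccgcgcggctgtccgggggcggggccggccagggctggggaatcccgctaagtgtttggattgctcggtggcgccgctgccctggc
IRF9: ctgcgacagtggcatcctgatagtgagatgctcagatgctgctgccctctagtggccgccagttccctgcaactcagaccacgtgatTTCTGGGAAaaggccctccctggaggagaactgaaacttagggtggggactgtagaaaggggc

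The IRF1 core starts 124 bases before the gene start and the IRF9 core 63 bases before it. Windows of 300 bases (250 before the start and 50 after it) were searched on both strands, and 7.66% of 35116 RefSeq windows held the GAS core. The ISRE core (GAAA, any 2 bases, GAAA), in 3.57% of windows, and the NF-kB core (GGG, any 2 bases, TT, any base, CC), in 5.68%, were in none of the windows of the 6 genes. A wider NF-kB core (GGG, any 5 bases, CC) was searched after that result was seen. It occurred in the windows of all 6 genes, as in 58.7% of all windows, and one of its matches in IRF1 was GGGGAATCCC, whose first base lies 50 bases before the start. These matches are letters in a window and were not tested as binding sites.

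IRF2, which binds the same sites as IRF1 and is known chiefly as its antagonist, was at 40.4, 35.5 and 42.8 CPM in HMU replicates 1 to 3 and at 25.0, 23.1 and 24.1 CPM in PBS replicates 1 to 3. Its log2 fold change was 0.72 ± 0.088 (SE), with an edgeR adjusted p of 0.00042, a smaller change than that of IRF1. The gene (gene ID 3660) is on chromosome 4 from 184387729 to 184474550, minus strand. In PBS libraries IRF1 and IRF2 had nearly equal counts, with a ratio of IRF1 to IRF2 counts of 1.02 ± 0.0208 (SD, n = 3), whereas in HMU libraries the ratio was 1.76 ± 0.0789. The groups did not overlap, and the two-sided exact permutation test gave p = 0.1, the smallest that 3 libraries against 3 allow.

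The deposited TPM values gave another picture for IRF2. They were 30.1, 13.3 and 18.5 TPM in HMU replicates 1 to 3, and 23.3, 21.8 and 23.8 TPM in PBS replicates 1 to 3, so that 2 HMU libraries lay below and 1 above the PBS range. The log2 fold change on log2(TPM + 1) was -0.22 and was not called (limma adjusted p = 0.47). The count divided by FPKM gives the transcript length that the authors' estimate assigned to a gene in each library. After centring each library on its median gene and setting the PBS mean to 1, that length for IRF2 was 0.988, 1.77 and 1.78 in HMU replicates 1 to 3, and 1.01, 1.01 and 0.974 in PBS replicates 1 to 3. The rise in HMU replicates 2 and 3 parts them from the other 4 libraries.

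The other 8 genes did not show this. Their largest implied length was at most 1.03 times their smallest over the 6 libraries, where for IRF2 that ratio was 1.83. A ratio that high was found in 0.424% of 13912 genes compared, or 59 genes, and the median gene had 1.02. Whether HMU replicates 2 and 3 held more of a long IRF2 transcript or were estimated differently was not tested, since no values per transcript were used here. On the TPM scale the ratio of IRF1 to IRF2 was 1.29, 2.22 and 2.15 in HMU replicates 1 to 3, and 0.727, 0.750 and 0.710 in PBS replicates 1 to 3. It was higher in HMU by 1.33 on the log2 scale from TPM and by 0.78 from counts.

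**Figure D3:**
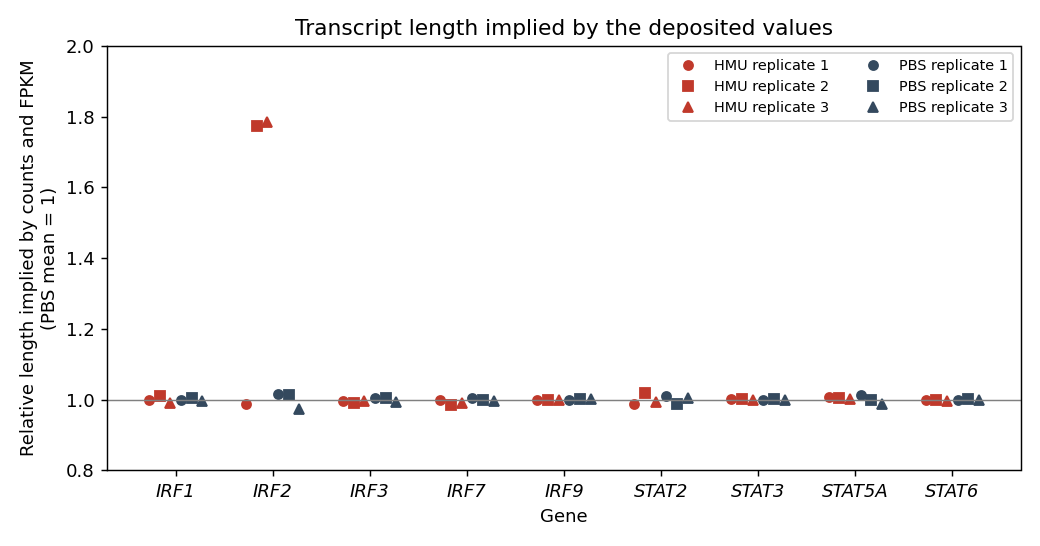
Transcript length implied by the deposited counts and FPKM for each of the 9 genes in each library, relative to the PBS mean of that gene (HMU in red, PBS in dark blue). IRF2 stands at 1.77 and 1.78 in HMU replicates 2 and 3 and near 1 in the other libraries, while the other 8 genes stay near 1 throughout.

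IRF3 and IRF7 are the factors that switch on type I interferon genes. IRF3 is made constitutively in most cells, while IRF7 is itself an interferon-stimulated gene in many. IRF3 (gene ID 3661, chromosome 19 from 49659572 to 49665857, minus strand) was at 71.3, 99.2 and 61.8 CPM in HMU replicates 1 to 3, and at 45.0, 48.4 and 45.5 CPM in PBS replicates 1 to 3. HMU replicate 2 was 1.49 times the mean of the other HMU libraries, and IRF3 was the most variable of the 9 genes in HMU, with a coefficient of variation of 25.1%. Its log2 fold change was 0.74 ± 0.16 (SE), with an edgeR adjusted p of 0.0068. Without HMU replicate 2 it was 0.53, still called (edgeR adjusted p = 5.9e-05). On log2(TPM + 1) it was 0.32 and was not called (limma adjusted p = 0.052). IRF3 overlaps BCL2L12, a BCL2 family gene on the opposite strand, over 734 bases. BCL2L12 averaged 30.0 CPM in HMU and 23.6 CPM in PBS, and its log2 fold change of 0.35 was not called (edgeR adjusted p = 0.077). It was called higher without HMU replicate 2 (0.17, edgeR adjusted p = 0.049), without HMU replicate 3 (0.45, edgeR adjusted p = 0.027) and with the replicate number as a block (0.33, edgeR adjusted p = 0.040). No source used here says whether reads were counted by strand, so reads of such pairs, those at IRF1 included, may be shared.

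IRF7 (gene ID 3665, chromosome 11 from 612555 to 615950, minus strand) was at 16.4, 20.1 and 15.5 CPM in HMU replicates 1 to 3, and at 8.65, 7.43 and 9.04 CPM in PBS replicates 1 to 3. The lowest HMU library, replicate 3, was above the highest PBS library, also replicate 3. IRF7 had a log2 fold change of 1.05 ± 0.13 (SE), with an edgeR adjusted p of 0.00038, and it was called on all 3 scales. As a ratio within libraries, IRF7 to IRF3 was 0.195 ± 0.0205 in HMU and 0.154 ± 0.0202 in PBS (TPM, SD, n = 3). The groups did not overlap, with an exact two-sided permutation p = 0.1, the smallest possible.

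STAT2 and IRF9 are the dedicated parts of ISGF3, and they moved to different extents. IRF9, the DNA-binding part (gene ID 10379, chromosome 14 from 24161265 to 24166565, plus strand), was at 41.5, 41.2 and 39.5 CPM in HMU replicates 1 to 3, and at 24.5, 19.9 and 22.6 CPM in PBS replicates 1 to 3. The HMU libraries were close together and all lay above the PBS libraries. Its log2 fold change was 0.86 ± 0.090 (SE), with an edgeR adjusted p of 0.00018. A GENCODE 29 gene on the same strand, AL136295.5, covers IRF9 and holds 82.7% of the 50-base sequences of its protein-coding transcripts; its level was not analysed here, so that its share of the reads is unknown.

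STAT2, the part with the activation domain (gene ID 6773, chromosome 12 from 56341597 to 56360107, minus strand), was at 63.2, 55.3 and 63.0 CPM in HMU replicates 1 to 3, and at 53.0, 51.4 and 51.1 CPM in PBS replicates 1 to 3. The lowest HMU library, replicate 2, stood only a little above the highest PBS library. STAT2 had a log2 fold change of 0.22 ± 0.076 (SE), with an edgeR adjusted p of 0.040. It was not called without HMU replicate 1 or 3 or without any 1 PBS library (log2 fold change 0.19 to 0.24, edgeR adjusted p = 0.094 to 0.15), and without HMU replicate 2 it was 0.29 and called (edgeR adjusted p = 0.00032). It was -0.057 with library sizes only and -0.17 on log2(TPM + 1), neither of them called (edgeR adjusted p = 0.58 and limma adjusted p = 0.23).

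The ratio of STAT2 to IRF9 needs no scaling between libraries. It was 0.557, 0.477 and 0.580 in HMU replicates 1 to 3, and 0.774, 0.944 and 0.811 in PBS replicates 1 to 3 (TPM). The HMU values were all below the PBS values, by 0.65 on the log2 scale, with an exact two-sided permutation p = 0.1, the smallest possible. The 5 ratios tested all had an exact p and an adjusted p of 0.1.

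STAT3 carries signals of the interleukin-6 and interleukin-20 families, which act on epithelia in wound repair and antimicrobial defence. It is on chromosome 17 from 42313324 to 42388442, minus strand (gene ID 6774). It was at 296, 241 and 314 CPM in HMU replicates 1 to 3, and at 158, 147 and 154 CPM in PBS replicates 1 to 3. HMU replicate 2 was the lowest HMU library, at 0.791 times the mean of the other 2, but lay above every PBS library. The log2 fold change was 0.89 ± 0.10 (SE), with an edgeR adjusted p of 0.00029, and it was 1.00 without HMU replicate 2. On log2(TPM + 1) it was 0.48 (limma adjusted p = 0.021).

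STAT6 carries interleukin-4 and interleukin-13 signals. Its gene (gene ID 6778) is on chromosome 12 from 57095408 to 57111362, minus strand. It was at 228, 238 and 232 CPM in HMU replicates 1 to 3, and at 163, 166 and 162 CPM in PBS replicates 1 to 3. These were the tightest replicates of the 9 genes, with a coefficient of variation of 2.05% in HMU and 1.19% in PBS. The log2 fold change was 0.51 ± 0.057 (SE), with an edgeR adjusted p of 0.00027. It was 0.22 with library sizes only (edgeR adjusted p = 0.011), and on log2(TPM + 1) it was 0.11 and not called (limma adjusted p = 0.17). The ratio of STAT3 to STAT6 was 1.01 ± 0.148 in HMU and 0.771 ± 0.0344 in PBS (TPM, SD, n = 3), without overlap and with an exact two-sided permutation p = 0.1.

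STAT6 overlaps its neighbours NAB2 and LRP1, both on the opposite strand. NAB2, a corepressor of EGR factors, shares 69 bases with STAT6 and moved the other way: it averaged 42.6 CPM in HMU and 76.3 CPM in PBS, a log2 fold change of -0.84 (edgeR adjusted p = 0.00015). LRP1, an endocytic receptor gene, shares 3647 bases of the annotated span, and averaged 172 CPM in HMU and 153 CPM in PBS. Its log2 fold change of 0.17 was not called (edgeR adjusted p = 0.28), but without HMU replicate 2 it was 0.30 and called (edgeR adjusted p = 0.00020).

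STAT5A, which carries signals of prolactin, growth hormone and several cytokines, had the largest change of the 9. The gene (gene ID 6776) lies on chromosome 17 from 42287439 to 42311943, plus strand, next to STAT3. It was at 33.5, 37.2 and 34.4 CPM in HMU replicates 1 to 3, and at 9.13, 7.52 and 8.50 CPM in PBS replicates 1 to 3. The HMU libraries were close together, replicate 2 included, and every one was more than 3 times the highest PBS library. The log2 fold change was 2.06 ± 0.096 (SE), with an edgeR adjusted p of 3.1e-06. It was at the 97.1 percentile of all fold changes, and was 1.78 with library sizes only and 1.47 on log2(TPM + 1). The ratio of STAT5A to STAT6 was 0.142 ± 0.00508 in HMU and 0.0487 ± 0.00491 in PBS (TPM, SD, n = 3), without overlap and with an exact two-sided permutation p = 0.1.

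Per transcript length the 9 genes spanned a wide range of levels. In HMU libraries the order was STAT3 (104 ± 21.0 TPM), STAT6 (103 ± 6.36 TPM), IRF3 (82.5 ± 14.6 TPM), IRF9 (44.6 ± 2.64 TPM), IRF1 (36.0 ± 5.53 TPM), STAT2 (24.1 ± 3.74 TPM), IRF2 (20.6 ± 8.57 TPM), IRF7 (15.9 ± 1.14 TPM) and STAT5A (14.7 ± 0.649 TPM). In PBS libraries the order was STAT6 (95.5 ± 1.26 TPM), STAT3 (73.6 ± 2.36 TPM), IRF3 (65.4 ± 2.79 TPM), IRF9 (32.3 ± 3.19 TPM), STAT2 (27.1 ± 0.272 TPM), IRF2 (23.0 ± 1.01 TPM), IRF1 (16.7 ± 0.304 TPM), IRF7 (10.1 ± 1.04 TPM) and STAT5A (4.65 ± 0.412 TPM), each as mean ± SD of 3 libraries. In PBS no neighbours in that order overlapped. In HMU the neighbours STAT3, STAT6 and IRF3 overlapped, and so did STAT2 with IRF2, IRF2 with IRF7, and IRF7 with STAT5A. IRF1 stood above STAT2 and IRF2 in every HMU library and below both in every PBS library.

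Among other genes of the 2 families, IRF8, an immune cell factor, had 0 counts in all 6 libraries, which allows a level of up to 3 counts in any of them. IRF5, IRF4 and STAT4 had log2 fold changes of 0.28, 2.67 and 0.92 and were called higher (edgeR adjusted p = 0.039, 0.0024 and 0.011). The call of IRF5 was lost with library sizes only (log2 fold change 0.00030), without the filter on low counts (edgeR adjusted p = 0.060), with the replicate number as a block (edgeR adjusted p = 0.058), without HMU replicate 1 (edgeR adjusted p = 0.062) and without any 1 PBS library (edgeR adjusted p = 0.087 to 0.13). On log2(TPM + 1) those of IRF5 (-0.11) and STAT4 (0.29) were lost. IRF4 was at 0.954 CPM in HMU and 0.150 CPM in PBS. With 16, 9 and 7 counts in PBS replicates 1 to 3, it passed the filter on low counts only through its HMU libraries. The long non-coding RNA IRF1-AS1 is the C5orf56 that overlaps IRF1 on the opposite strand. It averaged 2.71 CPM in HMU and 0.710 CPM in PBS (log2 fold change 1.93 ± 0.19 SE, edgeR adjusted p = 0.00012).

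STAT5B, the close paralogue of STAT5A, was at 32.0, 27.3 and 31.4 CPM in HMU replicates 1 to 3, and at 29.7, 29.2 and 29.04 CPM in PBS replicates 1 to 3. The groups overlapped, and its log2 fold change of 0.045, with a 95% interval from -0.14 to 0.23, was not called (edgeR adjusted p = 0.67); it was -0.24 with library sizes only (edgeR adjusted p = 0.048) and -0.33 on log2(TPM + 1) (limma adjusted p = 0.035), both called lower. The ratio of STAT5A to STAT5B was 1.24, 1.596 and 1.32 in HMU replicates 1 to 3, and 0.370, 0.300 and 0.348 in PBS replicates 1 to 3 (TPM). STAT5A was thus the higher of the pair in every HMU library and the lower in every PBS library. This ratio was chosen after its values were seen, and its exact two-sided permutation p was 0.1, the smallest possible. The protein-coding transcripts of the pair share 507 sequences of 50 bases, which is 10.3% of those of STAT5A and 9.88% of those of STAT5B, so a part of their reads could be assigned to either.

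The genes around these factors were counted in lists of the pathway's parts. Of 21 interferon genes, only IFNE and IFNK, both known from epithelia, passed the filter on low counts. Both were called higher, as were 25.0% of all genes tested. IFNE, which is known for its role in the female reproductive tract, averaged 1.61 ± 0.322 CPM in HMU and 0.443 ± 0.0517 CPM in PBS (log2 fold change 1.86 ± 0.21 SE, edgeR adjusted p = 0.00028). IFNK averaged 1.64 CPM in HMU and 0.252 CPM in PBS (log2 fold change 2.69, edgeR adjusted p = 2.8e-05). Both were low in PBS, with 28 to 35 counts of IFNE and 14 to 21 counts of IFNK per library. IFNB1, the interferon that IRF3 and IRF7 are best known to switch on, had 2, 0 and 0 counts in HMU replicates 1 to 3 and 4, 2 and 0 counts in PBS replicates 1 to 3. IFNG had 0 counts in all libraries, as did the 13 interferon alpha genes, each of which allows up to 3 counts in any library.

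Of 10 interferon receptor and JAK kinase genes, 7 rose and 2 fell, with a median log2 fold change of 0.47. Over all genes tested, 25.0% were called higher and 25.3% lower. IFNGR2 and IFNAR2 rose most. IFNGR2 averaged 253 ± 6.53 CPM in HMU and 80.0 ± 1.09 CPM in PBS (log2 fold change 1.66). IFNAR2 averaged 45.7 ± 2.23 CPM in HMU and 15.2 ± 1.00 CPM in PBS (1.59). IL10RB, a chain of the receptors of interferon lambda and interleukin-22, rose by 0.81 on the log2 scale. The genes that fell were JAK2 and IFNLR1, with log2 fold changes of -0.76 and -0.35. On log2(TPM + 1) only 3 of the 10 were higher, where 11.0% of all genes tested were.

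Of 16 tested cytokine receptors that feed STAT3, STAT5 or STAT6, 6 rose and 5 fell, and the median was -0.067. These shares were near the 25.0% higher and 25.3% lower of all genes tested. IL7R, the interleukin-7 receptor, averaged 30.6 ± 6.32 CPM in HMU and 3.26 ± 0.223 CPM in PBS (log2 fold change 3.23). IL2RG, the common gamma chain, averaged 1.90 ± 0.317 CPM in HMU and 0.219 ± 0.0525 CPM in PBS (3.10). IL4R, the receptor upstream of STAT6, averaged 149 ± 6.65 CPM in HMU and 48.2 ± 1.26 CPM in PBS (1.63). Among the receptor chains for interleukin-20 family cytokines in the list, IL20RA, IL20RB and IL22RA1 fell, with log2 fold changes of -1.35, -1.13 and -0.29. GHR and IL6R, the receptor genes for growth hormone and interleukin-6, fell as well, with -1.26 and -0.54. PRLR, the prolactin receptor gene, did not pass the filter on low counts.

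Of 18 sensors, adaptors and kinases upstream of IRF3 and IRF7, 12 rose and 3 fell, with a median of 0.48. The shares over all genes tested were 25.0% higher and 25.3% lower. The RNA sensors IFIH1 and DDX58 (also known as RIGI) had log2 fold changes of 1.59 and 1.23. IFIH1 averaged 44.7 ± 3.67 CPM in HMU and 14.9 ± 1.24 CPM in PBS. TLR3, the endosomal sensor of double-stranded RNA, fell to 1.69 ± 0.213 CPM in HMU, against 3.62 ± 0.0828 CPM in PBS (log2 fold change -1.09). TBK1, the kinase that activates IRF3, was at 31.3 CPM in both groups. Of the 18, 5 were lower with library sizes only, where 7942 of all 17990 genes tested were lower. On log2(TPM + 1) 4 were higher and 5 lower, beside 1975 higher and 9153 lower of all 17990.

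Of 17 inhibitors of the JAK-STAT pathway, 5 were higher and 5 lower, with a median of -0.14. These shares were also near those of all genes tested. SOCS3, a feedback inhibitor that STAT3 induces, had the largest rise, with 23.7 ± 2.96 CPM in HMU and 4.36 ± 0.406 CPM in PBS (log2 fold change 2.44). SOCS1 averaged 6.29 ± 0.322 CPM in HMU and 2.13 ± 0.0785 CPM in PBS (1.56), and the phosphatase gene PTPN1 642 ± 64.04 CPM in HMU and 272 ± 4.27 CPM in PBS (1.24). Among the genes that fell were PIAS3, an inhibitor of STAT3, with a log2 fold change of -0.77, and SOCS5, with -0.71. Of the 17, 9 were lower with library sizes only, where 7942 of all 17990 genes tested were lower.

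Genes known as targets of these factors were higher more often than not, where 25.0% of all genes tested were higher and 25.3% lower. The lists were chosen with earlier results of these data known. The part of these factors, or of others that act on the same genes, in the changes was not tested. Of 32 ISGF3 targets, 23 rose and 0 fell, with a median of 0.73 (0.45 with library sizes only); 0 were lower at an unadjusted p under 0.05 or by DESeq2. SAMD9 averaged 131 ± 32.5 CPM in HMU and 19.6 ± 0.465 CPM in PBS (log2 fold change 2.74), MX2 had a log2 fold change of 2.45 and XAF1 of 2.30. Several classical members of the list were not called, among them IFIT1 (log2 fold change -0.21), RSAD2 (0.091) and IFI44L (-0.0011). Scaled by library size alone, 15 rose and 3 fell, beside 2442 higher and 7942 lower of all 17990 genes tested. On log2(TPM + 1) 13 were higher and 3 lower, beside 1975 higher and 9153 lower of all 17990.

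Of 25 tested IRF1 targets, 22 rose and 1, NLRC5, fell, with a median of 1.08. Over all genes tested, 25.0% rose and 25.3% fell. CXCL10 averaged 43.2 ± 2.18 CPM in HMU and 1.11 ± 0.295 CPM in PBS (log2 fold change 5.29), its relative CXCL11 3.00 ± 0.266 CPM in HMU and 0.0745 ± 0.0448 CPM in PBS (5.30), and the adhesion molecule gene ICAM1 415 ± 41.7 CPM in HMU and 16.4 ± 0.217 CPM in PBS (4.66). These 3 genes are known targets of NF-kB as well, and its part in their rise was not tested. CXCL11 had only 3, 9 and 4 counts in PBS replicates 1 to 3, so it passed the filter on low counts only through its HMU libraries. Among the antigen presentation genes of the list, TAP1 had a log2 fold change of 1.08, PSMB9 of 0.74 and B2M of 0.57.

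Of 21 tested STAT3 targets, 16 rose and 2 fell, with a median of 1.16. Over all genes tested, 25.0% rose and 25.3% fell. The largest rises were those of the cytokine gene IL24, with 10.3 ± 1.63 CPM in HMU and 0.219 ± 0.0549 CPM in PBS (log2 fold change 5.55), of the protease inhibitor gene SERPINA3, with 21.3 ± 2.23 CPM in HMU and 0.457 ± 0.0980 CPM in PBS (5.53), and of the siderophore-binding lipocalin gene LCN2, with 68.5 ± 4.83 CPM in HMU and 2.25 ± 0.385 CPM in PBS (4.93). The genes that fell were BCL6 and CEBPD, with log2 fold changes of -1.63 and -0.33. Of 7 tested targets of STAT5 or STAT6, 5 rose and 0 fell, by DESeq2 and at an unadjusted p under 0.05 as well, and the median was 1.16. Among the 5 was CCL26, with 32, 22 and 23 counts in HMU replicates 1 to 3 and 0, 7 and 11 in PBS replicates 1 to 3. CCL26 thus passed the filter on low counts only through its HMU libraries. ALOX15, HSD3B1, POSTN, CCL17 and CCL24 of this list did not pass the filter. The transglutaminase gene TGM2 averaged 73.6 ± 9.54 CPM in HMU and 1.82 ± 0.186 CPM in PBS (log2 fold change 5.33) and the survival gene BCL2L1 261 ± 6.71 CPM in HMU and 117 ± 1.25 CPM in PBS (1.16). CISH, a feedback gene that STAT5 is best known to induce, had a log2 fold change of -0.12 and was not called. BCL2L1, IL4R, CISH, SOCS2, SOCS3, OSMR and IFI35 each stand in 2 lists, so the lists are not independent.

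**Figure D4:**
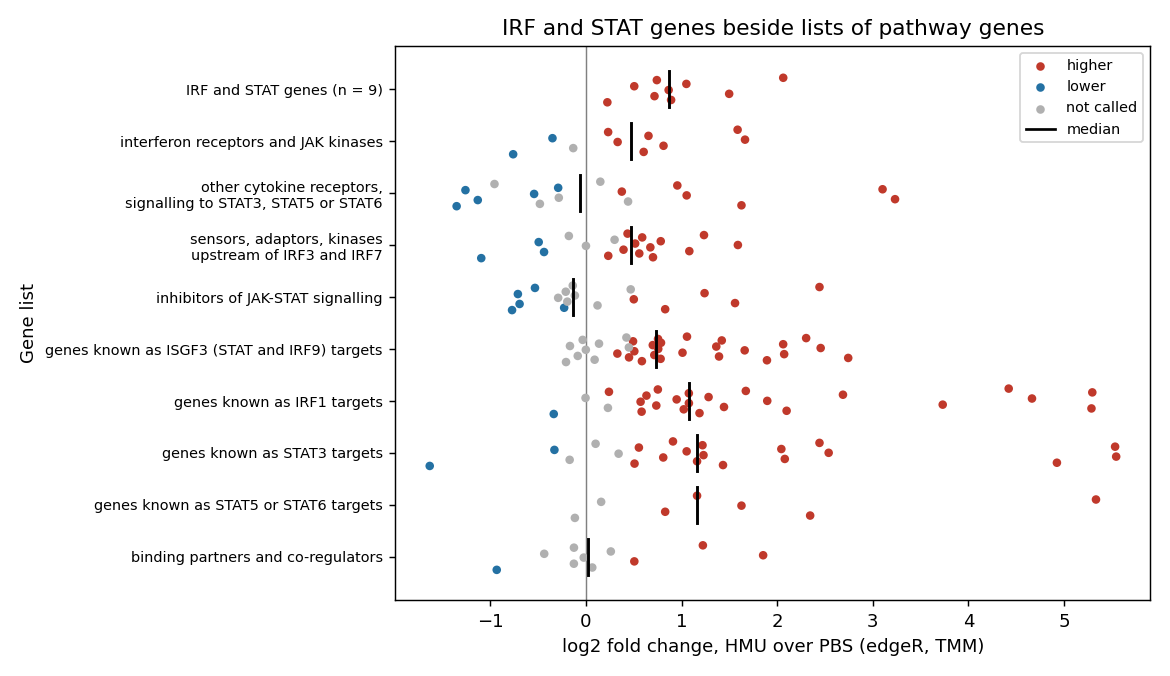
Log2 fold change of HMU over PBS (edgeR, TMM) for the 9 IRF and STAT genes and for the tested genes of each pathway list; each point is a gene, coloured by its call, and black lines are medians. The medians of the 9 genes and of the target lists lie above 0.7, while those of cytokine receptors, JAK-STAT inhibitors and partners lie near 0.

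Of 10 binding partners and co-regulators, 3 rose and 1 fell, with a median of 0.022. The shares over all genes tested were 25.0% higher and 25.3% lower. TRIM21, an antibody receptor and ubiquitin ligase that acts on IRF proteins, averaged 33.3 ± 3.00 CPM in HMU and 9.21 ± 0.401 CPM in PBS (log2 fold change 1.85). IRF2BP2, a corepressor that binds IRF2, averaged 339 ± 33.3 CPM in HMU and 145 ± 4.85 CPM in PBS (1.22). The coactivator gene NCOA1 fell to 5.65 ± 1.00 CPM in HMU, against 10.8 ± 0.312 CPM in PBS (-0.93). Of these 10, 4 were lower with library sizes only, where 7942 of all 17990 genes tested were lower.

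The genes whose profile over the 6 libraries was nearest to that of a member were found among 9577 other protein-coding genes that averaged 10 CPM or more, by Euclidean distance between centred log2(CPM + 0.5) profiles. With 2 groups in 6 libraries, nearness mostly means a like fold change. For IRF1 they were RIPK4, a kinase gene of epidermal differentiation (distance 0.0729, log2 fold change 1.52), GSAP (0.0865, 1.5) and PSTPIP2 (0.0866, 1.5). For STAT5A they were SLC8B1, ARSI and ARHGAP40, at distances of 0.176, 0.179 and 0.211, and for IRF7 they were TSC22D4, GNA15 and SNX8, at distances of 0.151, 0.154 and 0.168.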

How the data were processed

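The deposited table holds whole-number read counts per gene, taken as not normalised. It also holds FPKM and TPM, whose names in the file headers mean scaling by transcript length and, for the deposited TPM, to a constant total. Treated columns are headed HMO where the sample labels write HMU, and their numbers match. The tools listed in the submitters' processing notes are HISAT2 2.1.0 and StringTie 2.1.3b, with Trimmomatic 0.38, FastQC 0.11.7 and the build GRCh38. How reads were counted, on which annotation and by which strand was not stated in the sources used here.

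edgeR 4.0.16 (R 4.3.3) was run with filterByExpr, which left 17990 genes, TMM factors (0.893 to 0.920 in HMU, 1.10 to 1.11 in PBS), glmQLFit with legacy set to false, and glmQLFTest with the group as the only term. A gene was called where its Benjamini-Hochberg adjusted p was under 0.05. The SE was taken from the log2 fold change and its F. DESeq2 1.42.0 and limma 3.58.1 served the alternatives. The fits were checked on simulated counts. A count of 0 allows up to 3 counts, and such limits cover counting error only.

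The 9 genes and the lists were chosen with earlier results of these data known. The rule for naming took from each list the 3 called genes with the largest change and a mean of at least 1 CPM; others were named after their values were seen. Coordinates and promoter windows are RefSeq's for GRCh38.p14, matched by gene ID or symbol, and 6 of the 9 genes had a window. Strands, overlaps and 50-base sequences come from GENCODE 29.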

Additional observations from a re-analysis of the deposited data

How the results depend on the processing

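STAT5A, IRF1, IRF7, IRF9 and STAT3 kept their direction and their call under every alternative. With library sizes only the log2 fold change of STAT2 was -0.057 and that of STAT5B -0.24 (edgeR adjusted p = 0.048), 2442 genes were higher and 7942 lower, 15 ISGF3 targets were higher, and the lower genes numbered 3 (ISGF3 targets), 2 (IRF1 targets), 1 (STAT5 or STAT6 targets), 9 (inhibitors), 5 (sensors) and 4 (partners); LRP1 was at -0.11, its sign turned. On log2(TPM + 1) and log2(TPM + 0.1), 5 of the 9 genes were higher on either; IRF2 was at -0.22 and -0.24, STAT2 at -0.17 and -0.18, IRF5 at -0.11 and -0.12 STAT5B at -0.33 and -0.36, BCL2L12 at -0.050 and -0.052, and LRP1 at -0.24 and -0.25, and IRF3 (0.32 and 0.32) and STAT6 (0.11 and 0.11) lost their call. There, 1975 and 1965 genes were higher and 9153 and 9126 lower. ISGF3 targets were 13 higher and 3 lower on either, receptors and JAK kinases 3 higher on either, sensors 4 and 5 higher and 5 lower, inhibitors 11 and 10 lower, partners 5 lower and STAT5 or STAT6 targets 1 lower. Without the filter on low counts STAT2 was at 0.22 (edgeR adjusted p = 0.065) and 1 receptor or JAK kinase gene was lower. From counts the log2 difference of the ratio of IRF1 to IRF2 was 0.78. Leaving out each library in turn gave STAT2 0.19 to 0.29, 8 to 9 of the 9 genes higher, 3395 to 5459 genes higher and 3382 to 5487 lower over all, and, among the lists, 1 to 2 lower partners, 0 to 1 lower IRF1 targets, 3 to 6 lower inhibitors, 1 to 2 lower receptors or JAK kinases and 3 to 7 lower other cytokine receptors. Same-numbered libraries deviated together with correlations of 0.024, 0.21 and 0.25, and HMU replicate 1 correlated best with PBS replicate 3, so the numbers were not taken as pairs. With the replicate block, 4294 genes were higher and 4350 lower, 8 of the 9 genes were higher, STAT2 was at 0.22 (edgeR adjusted p = 0.068) and 2 partners were lower. The cause of these shifts was not tested.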
